A study of Mus musculus with 12 samples.

Results

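The tumour suppressor p53, encoded by Trp53, and 31 genes known as its targets or regulators were followed in CD4+ T cells in which the innate immune sensor STING was activated. The 32 genes form a list of p53-linked cell cycle, DNA repair and metabolic genes, put together without the apoptosis genes among the targets, although Aen, Pidd1 and Perp, which also act in cell death, are in it. The rule that defines it uses no measured value, though the list was drawn up with earlier results of these data known. All 32 were found among the 38924 gene IDs of the count data. The data used here are from an RNA sequencing experiment with 12 libraries in 4 groups of 3. WT cells came from C57BL/6 mice and STINGgt/gt cells from Goldenticket mice, labelled STING KO on the same C57BL/6 background, whose Tmem173 gene, which encodes STING, carries a missense mutation that leaves no functional protein. The mice were 8 to 12 weeks old. Naive CD4+ T cells sorted from spleen were expanded with antibodies against CD3 and CD28 for 2 days, rested for 1 day and cultured for 16 h with the solvent DMSO or with 10-carboxymethyl-9-acridanone (CMA), a cell-permeable small molecule that activates mouse STING. All 4 groups therefore share the expansion and the rest. The mutation is carried by every cell of the mouse, so it is not restricted to T cells. The comparisons ask how CMA alters p53 and its targets with and without functional STING, and whether the genotypes already differ with the solvent.

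p53 is a transcription factor that is held at a low level in resting cells, mainly because the ubiquitin ligase MDM2 marks it for degradation. Damage to DNA and other stress activate kinases that release p53 from MDM2, and p53 then switches on genes that halt the cell cycle, repair DNA, limit oxidative stress or lead to cell death. Mdm2 is itself a p53 target, which closes a negative feedback loop. The activity of p53 is set mostly at the level of the protein, which these RNA libraries do not measure.

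Reads counted on genes numbered 27414450 to 43784910 per library, and replicates differed beyond sampling noise in each pair (chi-square per degree of freedom 2.52 to 27.7, highest for WT DMSO replicates 2 and 3). Levels are given as CPM, read counts scaled to a common library size by the TMM method. Changes are log2 fold changes ± standard error from edgeR's quasi-likelihood test over 13811 genes, and the threshold is a Benjamini-Hochberg adjusted p of 0.05. The libraries of a group are described as biological replicates. Whether each came from a mouse of its own is not given in the sources used here. The p-values therefore weigh a group difference against the spread between these libraries, which may not be that between mice. Tmem173 was measured as a check of the labels, at 184, 190.3 and 183 CPM in WT with DMSO, 296, 304 and 316 in WT with CMA, 181, 170.5 and 168 in STINGgt/gt with DMSO and 184, 169 and 175 in STINGgt/gt with CMA. The genotypes did not differ in it past the threshold with DMSO (log2 0.10 ± 0.05, adjusted p = 0.0827, edgeR), and since the mutation alters an amino acid and may leave the mRNA level as it is, this does not test the labels. The 9 CD4+ T-cell markers were all detected, with a summed level of 3288 to 3378 CPM in WT with DMSO, 3023 to 3037 with CMA and 3365 to 3466 over the STINGgt/gt libraries. Of the markers of other cells, 7 B-cell genes summed to 666 to 734 CPM in WT with DMSO, 744 to 829 with CMA and 299 to 328 over the STINGgt/gt libraries. The 6 CD8 and natural killer markers summed to 71.0 to 75.7 CPM in WT with DMSO, 62.9 to 66.7 with CMA, and 51.1 to 62.6 in STINGgt/gt. The 7 myeloid markers summed to 44.3 to 48.3, 57.2 to 61.3 and 33.2 to 37.7 CPM, with Fcgr1 at 0 in all groups but WT with CMA. Within these lists the genes moved unequally with CMA in WT. Of the CD4+ T-cell markers 1 rose and 5 fell (median log2 fold change -0.17), of the B-cell markers 4 rose and 1 fell (0.27), of the CD8 and natural killer markers 1 rose and 4 fell (-0.96), and of the 5 myeloid markers tested 1 rose and 2 fell (-0.07). Reads outside annotated genes made up 4.86% to 5.47% of all tallied entries in WT with DMSO, 6.79% to 7.16% in WT with CMA and 5.98% to 6.54% in STINGgt/gt.

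In WT T cells with CMA, Trp53 and its 3 regulators rose, and the target genes moved in both directions. Of the 31 genes that could be tested, 15 rose, among them the feedback inhibitor Mdm2 and the targets Ptpn14, Phlda3, Perp and Trp53inp1. Another 10 fell, among them Ephx1, Plk2 and Sesn1, and 6 did not pass the test, among them Cdkn1a, the cell cycle inhibitor p21. Over all 13811 genes tested 33.0% rose and 37.4% fell, so that 15 rising genes of 31 (48.4%) stand beside a background of 33.0% and 10 falling genes (32.3%) beside 37.4%. The median log2 fold change was 0.08 over the 31 genes and 0.01 without Trp53, against -0.04 over all genes tested. Most of the changes were small, with 17 of the 25 below 0.5 on the log2 scale, and 4 genes changed at least 2-fold. The CMA libraries lay wholly above or below the DMSO libraries for 25 of the 31 genes, beside 71.1% of all genes tested. Among the 25 genes called, the libraries overlapped only for Ccng1. Eda2r, a receptor of the tumour necrosis factor family, was too low to test, at 2 to 15 reads per library, and Gdf15, a stress-induced cytokine, had 4 to 15 reads. In bulk RNA, fewer cells that express a gene and less RNA per cell cannot be told apart. The marker sums and the share of reads outside genes above move with CMA in WT as well, and their part in these changes was not tested.

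**Figure D1:**
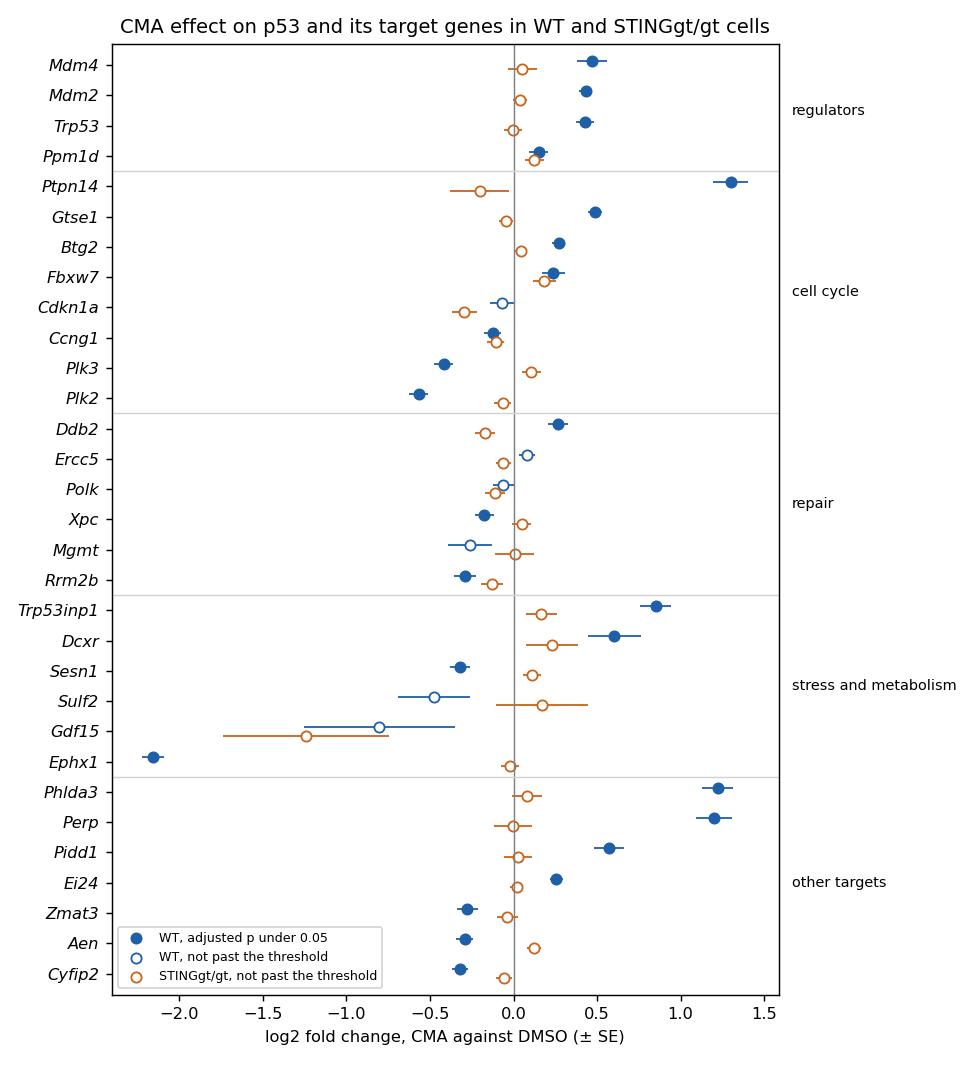
Log2 fold change of each tested gene with CMA against DMSO (horizontal axis, ± SE) in WT (blue) and STINGgt/gt cells (orange), grouped by role, filled where the adjusted p is under 0.05. The filled points are all WT: 15 to the right of 0 and 10 to the left, from Ephx1 at -2.16 to Ptpn14 at 1.30, while no STINGgt/gt point is filled.

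Per kilobase of exon, the highest levels in WT with DMSO were those of Cdkn1a at 116, Cyfip2 at 108 and Ccng1 at 93 CPM per kilobase. Btg2 followed at 39.2, Trp53 itself at 34.8, Ephx1 at 27.5 and Mdm2 at 25.3. The lowest were Ptpn14 at 0.633, Sulf2 at 0.2, Gdf15 at 0.179 and Eda2r at 0.0265 CPM per kilobase. Ptpn14, which had the largest rise of the list, was near the bottom of this order, whereas Cdkn1a at its top did not change past the threshold in WT.

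The regulators rose together in WT. Trp53 (GRCm38 chr11:69580359-69591873, plus strand, the build of all positions given here) was at 140.2, 149.8 and 132 CPM in WT with DMSO, 188, 192 and 188 in WT with CMA, 166, 157 and 169.7 in STINGgt/gt with DMSO and 160.4, 156 and 174 in STINGgt/gt with CMA. All WT libraries with CMA lay above all with DMSO, and the STINGgt/gt libraries with CMA overlapped those with DMSO. The increase was 1.35-fold in WT (log2 0.43 ± 0.05, adjusted p = 2.04e-06, edgeR). Mdm2 (chr10:117688875-117710758, minus strand), the ubiquitin ligase that degrades p53, was at 128, 126 and 131 CPM in WT with DMSO, 174, 174 and 172 in WT with CMA, 119, 116 and 117 in STINGgt/gt with DMSO and 116, 119 and 125 in STINGgt/gt with CMA. Its rise in WT was 1.35-fold (0.43 ± 0.04, adjusted p = 5.98e-08, edgeR), with no overlap between the groups and a spread of only a few CPM within them.

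Mdm4 (chr1:132959484-133030561, minus strand), which encodes MDMX, a relative of MDM2 that blocks p53 without degrading it, was at 129.9, 98.5 and 131 CPM in WT with DMSO, 173, 156 and 170.1 in WT with CMA, 138, 164 and 159 in STINGgt/gt with DMSO and 153, 168 and 157 in STINGgt/gt with CMA. Replicate 2 of WT with DMSO was lower than the others, and the CMA libraries were above all 3. The log2 fold change was 0.47 ± 0.09, adjusted p = 0.000191 (edgeR). Ppm1d (chr11:85311244-85347066, plus strand), the phosphatase WIP1, which removes activating phosphates from p53 and from the damage kinases, was at 28.1, 26.5 and 30.8 CPM in WT with DMSO, 31.9, 31.1 and 32.1 in WT with CMA, 33.1, 33.1 and 32.5 in STINGgt/gt with DMSO and 34, 37 and 36.6 in STINGgt/gt with CMA. Its groups were close, and the rise in WT (0.15 ± 0.06, adjusted p = 0.0265, edgeR) was the smallest of the 15. It lost the threshold when WT DMSO replicate 1 or 2 or WT CMA replicate 1 or 3 was left out, with adjusted p-values up to 0.146, and its log2 fold change was 0.09 without WT DMSO replicate 2.

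For 26 of the 32 genes a promoter window was found in RefSeq (GRCm38.p6), 37 windows in all, each running from 250 bases before the start of a transcript to 50 bases after it. The genes with no window were Xpc, Trp53inp1, Ddb2, Rrm2b, Zmat3 and Perp. They were searched on both strands for the p53 decamer, the 10-base element of which p53 binds a pair, for an interferon regulatory factor (IRF) motif, GAAANNGAA, for the NF-κB consensus site and for the cell cycle homology region, TTTGAA, found in mitotic genes. The p53 decamer, allowing no mismatch, was in 11 of the 37 windows, belonging to Aen, Ccng1, Cdkn1a, Ei24, Gtse1, Mdm2, Polk, Ppm1d, Sesn1 and Trp53, and in 8.36% of all 32851 windows. Of these 10 genes 5 rose, 3 fell and 2 did not pass the test in WT, where 33.0% of all genes tested rose and 37.4% fell. They were not compared with the genes lacking a decamer. A pair of decamers with at most 13 bases between them was found in Cdkn1a alone and in 0.0731% of all windows. It lies in the upstream one of the 2 Cdkn1a windows. The window of the downstream start, chr17:29093519-29093818, holds none of these motifs. The IRF motif was in Pidd1 and Plk2 (8.56% of all windows), the NF-κB site in Trp53 and Gtse1 (4.51%) and TTTGAA in Aen, Ercc5 and Gdf15 (17.9%). Windows of the 26 genes were richer in G and C than all windows, with a median of 60% against 52.7%. A match of letters is a description and no evidence of binding, and the sites of p53 targets often lie outside such windows.

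The stretches around the matches are shown for Cdkn1a, which has the pair, for Trp53 and Mdm2 at the core of the pathway, and for the genes past the threshold in WT with an IRF or NF-κB match. They are written 5′ to 3′ on the strand of the gene, with matches in capitals, and end before the transcript start of their window. For Cdkn1a and Gtse1 this is the upstream one of 2 starts with a window. The stretch of Cdkn1a lies at chr17:29090881-29090962 (plus strand, decamers at -73 and -51 from the start), Trp53 at chr11:69580259-69580358 (plus strand, decamer at -75 and the first part of an NF-κB match at -5 that runs past the start), Mdm2 at chr10:117710910-117710969 (minus strand, decamer at -186), Gtse1 at chr15:85859559-85859618 (plus strand, NF-κB match at -123), Pidd1 at chr7:141444080-141444138 (minus strand, IRF match at -88) and Plk2 at chr13:110394801-110394859 (plus strand, IRF match at -218, on the opposite strand).
Cdkn1a: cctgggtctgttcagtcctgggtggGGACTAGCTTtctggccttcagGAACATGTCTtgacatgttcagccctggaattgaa
Trp53: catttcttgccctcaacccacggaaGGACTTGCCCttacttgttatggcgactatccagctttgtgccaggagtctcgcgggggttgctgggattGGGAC
Mdm2: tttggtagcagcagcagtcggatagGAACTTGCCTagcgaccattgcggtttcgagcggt
Gtse1: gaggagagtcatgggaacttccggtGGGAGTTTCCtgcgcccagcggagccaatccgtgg
Pidd1: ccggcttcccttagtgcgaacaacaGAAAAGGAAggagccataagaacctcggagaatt
Plk2: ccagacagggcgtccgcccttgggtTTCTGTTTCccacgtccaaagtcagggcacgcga

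Among the 8 cell cycle genes 4 rose, 3 fell and 1 did not pass the test in WT. Over all genes tested 33.0% rose and 37.4% fell. Cdkn1a (chr17:29090976-29100727, plus strand), which encodes p21, the inhibitor of cyclin-dependent kinases through which p53 halts the cycle, was at 423, 440.1 and 372 CPM in WT with DMSO, 405, 414 and 361 in WT with CMA, 268, 261 and 240.1 in STINGgt/gt with DMSO and 231, 196 and 201 in STINGgt/gt with CMA. In WT the libraries with CMA overlapped those with DMSO (log2 -0.07 ± 0.07, adjusted p = 0.433, edgeR). Every STINGgt/gt library was below every WT library, and those with CMA were below those with DMSO, a difference that did not pass the threshold (-0.29 ± 0.07, adjusted p = 0.0618, edgeR). It did pass in 7 of 20 alternative analyses, with adjusted p-values from 6.42e-05 to 0.256 over all of them. Among these 7 is the fit with a block for the replicate number (adjusted p = 0.00197, edgeR). The labels tie equal numbers to no shared animal.

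Ptpn14 (chr1:189728268-189876695, plus strand), a tyrosine phosphatase that restrains the growth regulator YAP, showed the largest rise among the 31 tested genes of the list, at 8.19, 7.14 and 10.1 CPM in WT with DMSO, 21.2, 21.8 and 20.4 in WT with CMA, 1.78, 2.05 and 2.27 in STINGgt/gt with DMSO and 1.86, 1.47 and 1.97 in STINGgt/gt with CMA. The WT libraries with CMA were 2.46-fold higher than with DMSO (1.30 ± 0.11, adjusted p = 1.18e-08, edgeR), and the STINGgt/gt libraries were at a level far below both. Gtse1, a microtubule protein that dampens p53 in G2 phase, rose from 65.1, 65.6 and 66.5 to 95.3, 93.1 and 88 CPM (0.49 ± 0.04, adjusted p = 2.39e-08, edgeR). Btg2, an antiproliferative adaptor of mRNA decay, rose by 0.27 and Fbxw7, which targets cyclin E and MYC for degradation, by 0.24 on the log2 scale (0.15 without WT DMSO replicate 2).

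Both Polo-like kinases of the list fell in WT. Plk2 (chr13:110395046-110400844, plus strand), a kinase of centriole duplication and stress responses, was at 27.6, 26.5 and 24.5 CPM in WT with DMSO, 17.9, 17.8 and 17.2 in WT with CMA, 54.6, 55.1 and 51 in STINGgt/gt with DMSO and 51, 53 and 49.6 in STINGgt/gt with CMA. The CMA libraries were 1.48-fold lower than the DMSO libraries in WT (-0.57 ± 0.06, adjusted p = 1.91e-07, edgeR), and the STINGgt/gt libraries lay above all of them. Plk3 (chr4:117128655-117133963, minus strand), a kinase of the damage and stress response, was at 35.7, 39.4 and 33.7 CPM in WT with DMSO, 27.5, 27.8 and 26 in WT with CMA, 35.3, 36.2 and 36.3 in STINGgt/gt with DMSO and 39.7, 38.8 and 37.6 in STINGgt/gt with CMA. It fell in WT (-0.42 ± 0.06, adjusted p = 6.26e-06, edgeR), while the STINGgt/gt libraries with CMA lay slightly above those with DMSO (adjusted p = 0.436, edgeR). Ccng1, cyclin G1, which recruits a phosphatase to MDM2, was near the threshold (-0.12 ± 0.05, adjusted p = 0.0425, edgeR) and passed it in 5 of 20 alternative analyses. Its log2 fold change was -0.19 without WT DMSO replicate 2 and -0.06 without WT DMSO replicate 3. Exons of Plk3 overlap Tctex1d4 on the opposite strand, those of Ptpn14 and Cdkn1a overlap antisense models, and the strand setting of the counting is not given in the sources used here.

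**Figure D2:**
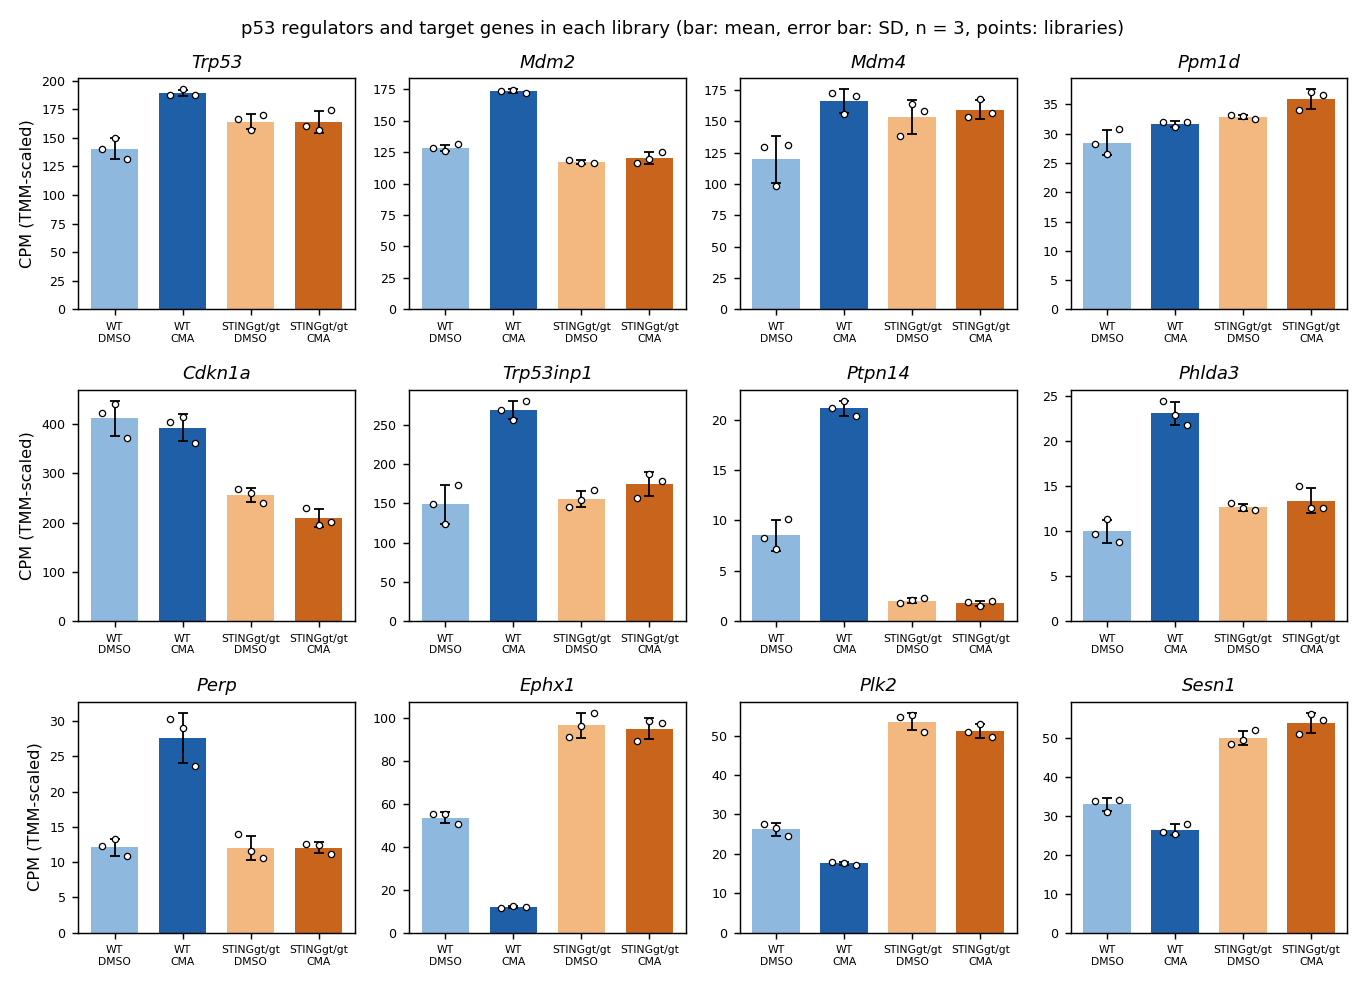
TMM-scaled CPM (vertical axes, from 0) of 12 genes in the 4 groups, with bars at the mean, error bars at the SD and a point for each of the 3 libraries. Trp53 and Mdm2 stand higher in WT with CMA than in the other groups, Ptpn14, Phlda3 and Perp more than 2-fold higher than in WT with DMSO, and Ephx1 falls from a mean of 53.7 to 12 CPM.

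Of the 6 DNA repair genes 1 rose, 2 fell and 3 did not pass the test in WT. Beside these counts stand 33.0% rising and 37.4% falling over all genes tested. Ddb2, a subunit of the complex that recognises ultraviolet damage, rose from 31.1, 35.9 and 30.0 to 40.3, 37.4 and 38.7 CPM in WT (0.27 ± 0.06, adjusted p = 0.000907, edgeR). Rrm2b, the ribonucleotide reductase subunit that supplies nucleotides for repair, fell from 23.4, 19.7 and 23.8 to 18.1, 18.7 and 18.1 CPM (-0.29 ± 0.07, adjusted p = 0.00125, edgeR). Xpc, which recognises damage in nucleotide excision repair, fell slightly (log2 -0.17 ± 0.06, adjusted p = 0.0119, edgeR) and lost the threshold in 4 of 20 alternative analyses. The other 3 did not pass the test, namely the bypass polymerase Polk at -0.06 ± 0.06, adjusted p = 0.389 (edgeR), the excision nuclease Ercc5 at 0.08 ± 0.05, adjusted p = 0.124 (edgeR) and the repair methyltransferase Mgmt at -0.26 ± 0.13, adjusted p = 0.0916 (edgeR). Exons of Ddb2 overlap Acp2 on the opposite strand (537 reads on average), and those of Rrm2b overlap an antisense model.

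The stress and metabolic targets held the largest fall and 1 of the larger rises. Ephx1 (chr1:180976210-181020904, minus strand), microsomal epoxide hydrolase, which detoxifies reactive epoxides, was at 55.1, 55.4 and 50.5 CPM in WT with DMSO, 11.7, 12.4 and 12 in WT with CMA, 91.3, 96.2 and 103 in STINGgt/gt with DMSO and 89.3, 98.5 and 97.8 in STINGgt/gt with CMA. The WT libraries with CMA were 4.46-fold lower than with DMSO (-2.16 ± 0.06, adjusted p = 3.88e-14, edgeR), and all STINGgt/gt libraries were higher than all WT libraries. Exons of Ephx1 overlap a pseudogene on the same strand, so reads there may have been left out as ambiguous. Trp53inp1 (chr4:11156431-11174379, plus strand), a stress-induced protein that promotes p53 phosphorylation, was at 149, 124 and 174 CPM in WT with DMSO, 269, 256 and 279.9 in WT with CMA, 145, 155 and 167 in STINGgt/gt with DMSO and 157, 188 and 178 in STINGgt/gt with CMA. The WT libraries with CMA were above all other libraries, and the rise was 1.8-fold (0.85 ± 0.09, adjusted p = 5.6e-07, edgeR).

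Sesn1 (chr10:41809935-41908424, plus strand), a sestrin that restrains mTORC1 and oxidative stress, was at 33.8, 31 and 34.2 CPM in WT with DMSO, 25.8, 25.4 and 28 in WT with CMA, 48.6, 49.5 and 52.2 in STINGgt/gt with DMSO and 51, 56.1 and 54.7 in STINGgt/gt with CMA. It fell in WT (-0.32 ± 0.06, adjusted p = 0.000123, edgeR) and was higher in every STINGgt/gt library than in any WT library. Dcxr (chr11:120725399-120727281, minus strand), an enzyme of xylulose metabolism, was low, at 2.95, 4.13 and 2.46 CPM in WT with DMSO, 4.52, 4.97 and 4.82 in WT with CMA, 2.99, 2.98 and 2.86 in STINGgt/gt with DMSO and 3.97, 3.53 and 2.88 in STINGgt/gt with CMA. Its rise in WT (0.60 ± 0.16, adjusted p = 0.00254, edgeR) rested on 81 to 162 reads per library, and replicate 2 of WT with DMSO came near the CMA libraries. Sulf2, an extracellular sulfatase, was lower still (1.02, 0.939 and 1.56 CPM in WT with DMSO and 1, 0.895 and 0.693 with CMA) and did not pass the test (-0.47 ± 0.22, adjusted p = 0.0606, edgeR). Gdf15 did not pass it either (log2 -0.80 ± 0.45, adjusted p = 0.1247, edgeR). Sulf2 was called lower in 4 of 20 alternative analyses (log2 -0.62 to -0.16 over all of them), Mgmt in 2 (-0.37 without WT DMSO replicate 3 and -0.40 without WT CMA replicate 2) and Polk in 1 of 20 (-0.15 without WT DMSO replicate 2), Gdf15 in 1 of 17, and Ercc5 was called higher in 2 of 20.

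The 7 tested genes of the remaining group all passed the threshold, 4 upwards and 3 downwards, beside 33.0% and 37.4% of all genes tested. Phlda3 (chr1:135766119-135769136, plus strand), which competes with AKT for membrane lipids, was at 9.72, 11.4 and 8.8 CPM in WT with DMSO, 24.5, 23 and 21.9 in WT with CMA, 13.1, 12.6 and 12.4 in STINGgt/gt with DMSO and 15, 12.6 and 12.6 in STINGgt/gt with CMA. The WT libraries with CMA were all above 20 CPM and all other libraries below it, a rise of 2.33-fold in WT (1.22 ± 0.09, adjusted p = 3.73e-09, edgeR). Perp (chr10:18845020-18857073, plus strand), a membrane protein of cell junctions and cell death, was at 12.3, 13.2 and 10.9 CPM in WT with DMSO, 30.3, 29 and 23.6 in WT with CMA, 13.9, 11.6 and 10.6 in STINGgt/gt with DMSO and 12.6, 12.5 and 11.1 in STINGgt/gt with CMA. It rose 2.29-fold in WT (1.20 ± 0.11, adjusted p = 4.39e-08, edgeR), and with DMSO the libraries of the genotypes overlapped.

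Pidd1 (chr7:141438113-141444025, minus strand), the scaffold of the PIDDosome that activates caspase-2, was at 21, 25.5 and 18.7 CPM in WT with DMSO, 32.1, 32.5 and 31.7 in WT with CMA, 29.7, 29.3 and 33 in STINGgt/gt with DMSO and 33.2, 28.8 and 31.6 in STINGgt/gt with CMA. It rose in WT (0.57 ± 0.09, adjusted p = 2.53e-05, edgeR) to the level at which the STINGgt/gt libraries already stood. Ei24, a membrane protein of the endoplasmic reticulum, rose from 69.3, 68.7 and 68.7 to 82.8, 80.2 and 83.8 CPM (0.26 ± 0.04, adjusted p = 2.63e-05, edgeR), and its exons overlap an antisense model that had no reads on average.

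Cyfip2 (chr11:46193850-46312859, minus strand), a subunit of the WAVE complex that drives actin branching, was among the most abundant, at 790.4, 705 and 811 CPM in WT with DMSO, 603, 617 and 628 in WT with CMA, 680.3, 706 and 708 in STINGgt/gt with DMSO and 685, 663 and 665 in STINGgt/gt with CMA. It fell in WT (-0.32 ± 0.05, adjusted p = 1.78e-05, edgeR), with all CMA libraries below all DMSO libraries. Aen (chr7:78895854-78911209, plus strand), a nuclease that acts in apoptosis, was at 29.6, 32.1 and 31.3 CPM in WT with DMSO, 25.4, 26.2 and 24.3 in WT with CMA, 41.7, 42.1 and 42.7 in STINGgt/gt with DMSO and 46.1, 45.7 and 46 in STINGgt/gt with CMA. It fell in WT (-0.29 ± 0.05, adjusted p = 4.16e-05, edgeR). Its CMA libraries in STINGgt/gt lay above the DMSO libraries without passing the threshold (0.12 ± 0.04, adjusted p = 0.232, edgeR). Zmat3, a zinc finger protein that binds RNA and regulates splicing, fell from 63.9, 51.9 and 57.3 to 48.9, 46.6 and 47.3 CPM (log2 -0.28 ± 0.06, adjusted p = 0.00123, edgeR).

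In STINGgt/gt T cells no gene of the 31 passed the threshold with CMA in edgeR, beside 0.398% of all genes higher and 0.920% lower. At an unadjusted p of 0.05 there were 6 of 31, beside 12.96% of all genes tested, DESeq2 called 1 (Cdkn1a, lower) and limma-voom none. The median log2 fold change of the 31 genes was 0.01, against 0.00 over all genes. A test of the difference itself found that CMA acted differently in the 2 genotypes on 20 of the 31 genes, higher in WT for 12 and lower for 8, beside 27.2% and 31.6% of all genes. All 20 had moved in the same direction in WT. The largest differences were those of Ephx1 (log2 -2.13 ± 0.08, adjusted p = 4.3e-12, edgeR), Ptpn14 (1.50 ± 0.21, adjusted p = 1.11e-05), Perp (1.20 ± 0.16, adjusted p = 5.86e-06) and Phlda3 (1.14 ± 0.13, adjusted p = 1.09e-06). For Trp53 the difference was 0.43 ± 0.08, adjusted p = 0.000118 (edgeR), for Mdm2 0.39 ± 0.06, adjusted p = 1.76e-05 and for Mdm4 0.42 ± 0.13, adjusted p = 0.0096.

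In 5 genes that changed in WT, the effect of CMA did not differ between the genotypes past the threshold, these being Ppm1d, Ccng1, Fbxw7, Rrm2b and Dcxr. Ppm1d stood at 0.15 ± 0.06 in WT and 0.13 ± 0.06 in STINGgt/gt on the log2 scale, and its CMA libraries lay above the DMSO libraries in both. Fbxw7 stood at 0.24 ± 0.07 and 0.18 ± 0.07, and Ccng1 at -0.12 ± 0.05 and -0.11 ± 0.05. The values were further apart for Dcxr, at 0.60 ± 0.16 and 0.23 ± 0.16, and for Rrm2b, at -0.29 ± 0.07 and -0.13 ± 0.07, and the difference of each passed the threshold in 1 of 19 alternative analyses, that without WT DMSO replicate 2. For these genes the data do not show an effect that depends on STING, nor that the genotypes respond alike. For Cdkn1a the difference was 0.23 ± 0.10, adjusted p = 0.0704 (edgeR), and it passed the threshold in 9 of 19 alternative analyses. Among these 9 is the fit with a block for the replicate number (adjusted p = 0.00407, edgeR).

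**Figure D3:**
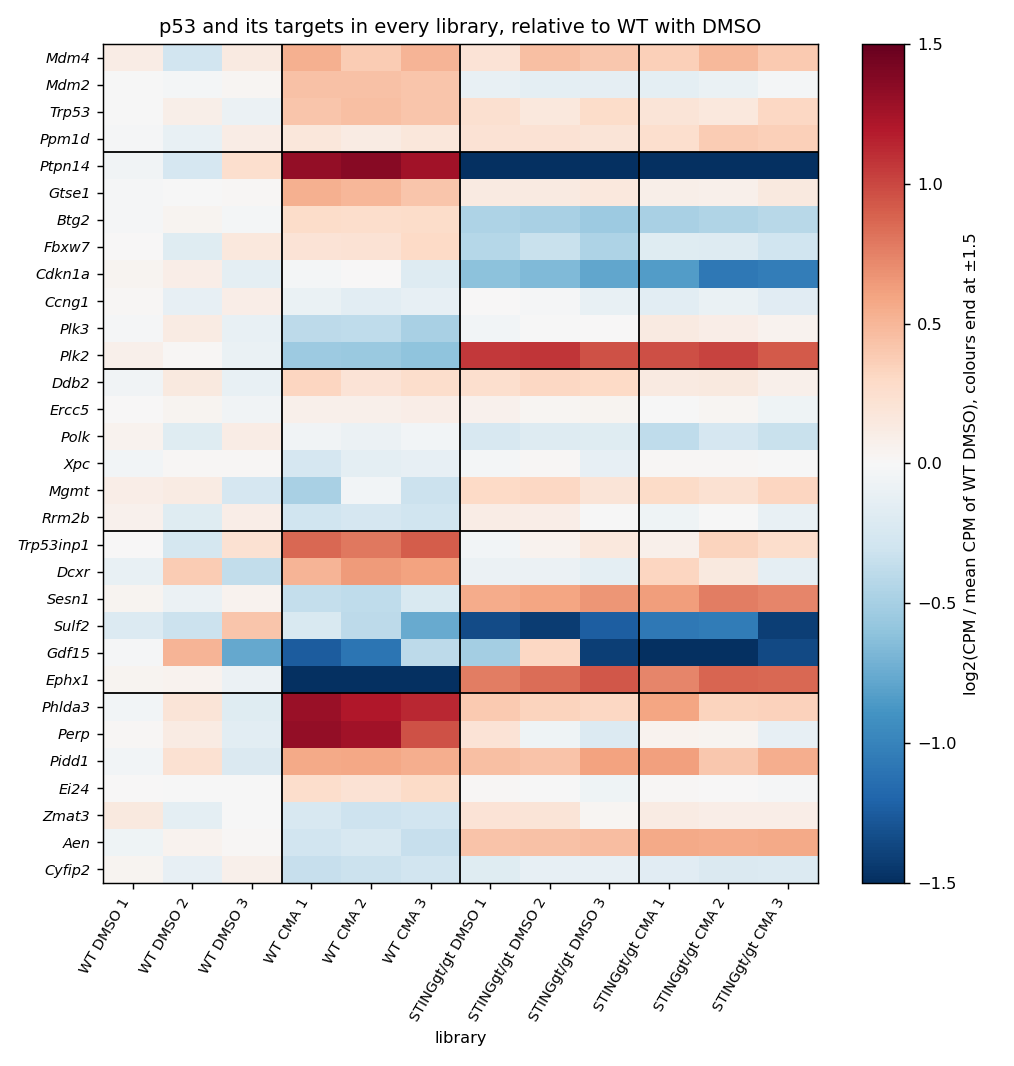
Log2 of the CPM in each of the 12 libraries (columns) relative to the mean of WT with DMSO for the 31 tested genes (rows, by role), with red higher and blue lower and the colours ending at ±1.5. The WT CMA libraries differ from WT DMSO in both directions, and no gene passed the threshold between DMSO and CMA in STINGgt/gt. With DMSO 8 genes were called higher and 11 lower in WT than in STINGgt/gt, beside 22.9% and 19.8% of all genes tested.

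With DMSO alone 8 genes were higher and 11 lower in WT than in STINGgt/gt, beside 22.9% and 19.8% of all genes tested. The 4 largest differences among those called were those of Ptpn14, Sulf2, Plk2 and Ephx1. Ptpn14 was 4.24-fold higher in WT, with means of 8.49 ± 1.5 and 2.03 ± 0.25 CPM (SD, n = 3; log2 2.08 ± 0.14, adjusted p = 5.97e-09, edgeR). Sulf2 was higher in WT, at 1.02, 0.939 and 1.56 CPM in WT with DMSO, 1, 0.895 and 0.693 in WT with CMA, 0.464, 0.438 and 0.498 in STINGgt/gt with DMSO and 0.559, 0.565 and 0.442 in STINGgt/gt with CMA (log2 1.37 ± 0.24, adjusted p = 0.000248, edgeR), on 16 to 64 reads per library. Its exons overlap those of Ncoa3, a far more abundant gene on the opposite strand with 9413 reads on average. Plk2 was 2.05-fold lower in WT, at 26.2 ± 1.6 against 53.6 ± 2.3 CPM (SD, n = 3; log2 -1.04 ± 0.05, adjusted p = 2.16e-10, edgeR), and Ephx1 1.8-fold lower, at 53.7 ± 2.8 against 96.7 ± 5.7 CPM (log2 -0.85 ± 0.06, adjusted p = 3.89e-09, edgeR).

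Cdkn1a was 1.61-fold higher in WT, at 412 ± 35.4 against 256 ± 14.4 CPM (SD, n = 3; log2 0.68 ± 0.07, adjusted p = 1.51e-06, edgeR). Btg2, Fbxw7, Polk, Cyfip2 and Mdm2 were higher in WT by log2 values of 0.13 to 0.49. Trp53 itself was slightly lower in WT with DMSO (-0.22 ± 0.05, adjusted p = 0.00293, edgeR), as were Mdm4 (-0.36), Ppm1d (-0.20), Sesn1 (-0.60), Pidd1 (-0.50), Aen (-0.44), Phlda3 (-0.36), Ddb2 (-0.29) and Gtse1 (-0.15). Among the regulators Mdm2 was thus the only one higher in WT. Of these calls that of Cyfip2 was lost in 10, that of Polk in 4 and that of Mdm2 in 3 of 19 alternative analyses. In the same libraries all 7 B-cell markers, the 5 myeloid markers that could be tested and 4 of the 6 CD8 and natural killer markers were higher in WT, and their part in the differences was not tested.

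**Figure D4:**
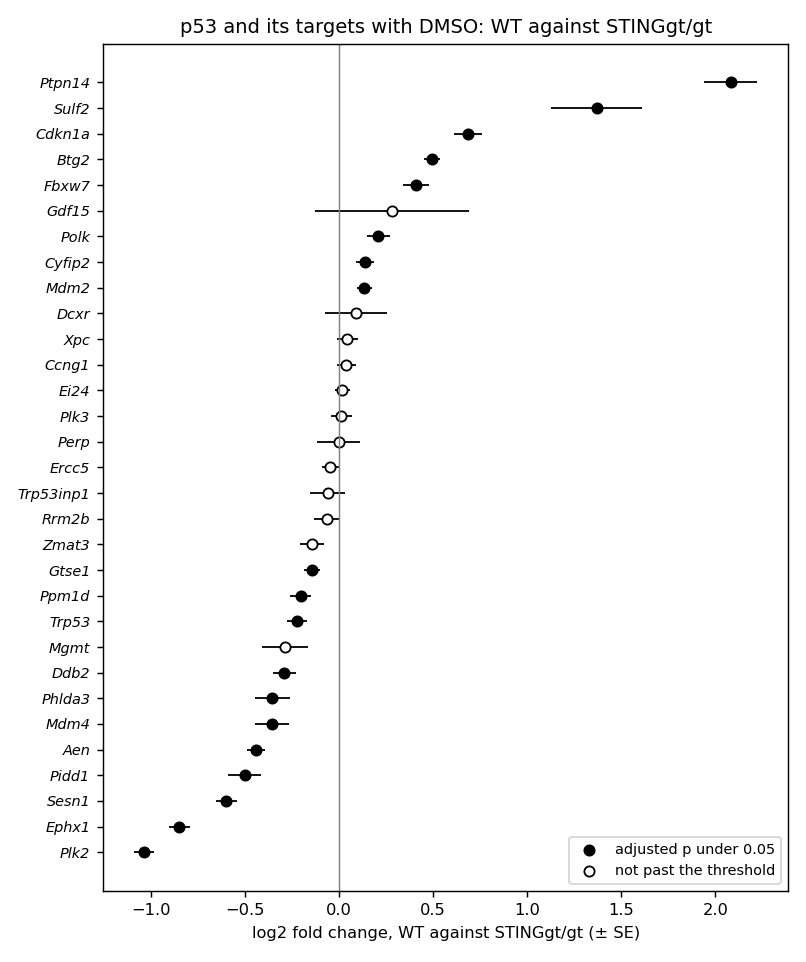
Log2 fold change of each tested gene in WT against STINGgt/gt cells with DMSO (horizontal axis, ± SE), ordered by size and filled where the adjusted p is under 0.05. Ptpn14 at 2.08 and Plk2 at -1.04 mark the ends, and 8 filled points lie to the right of 0 and 11 to the left.

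Genes around p53 were read from further lists, whose counts stand beside 33.0% of all genes rising and 37.4% falling in WT with CMA, with a median log2 fold change of -0.04. Of 13 damage kinases and adaptors upstream of p53, 5 rose, 3 fell and 5 did not pass the test in WT (median log2 fold change -0.03). Atm, the kinase that activates p53 at double-strand breaks, rose most, at 102, 71.9 and 120.2 CPM in WT with DMSO, 415, 387 and 440.5 in WT with CMA, 119.9, 137 and 139 in STINGgt/gt with DMSO and 136, 151 and 144 in STINGgt/gt with CMA. That is 4.21-fold in WT (2.08 ± 0.13, adjusted p = 2.67e-10, edgeR), with WT DMSO replicate 2 the lowest of all libraries. Atr, the kinase of replication stress, and its partner Chek1 rose by 0.37 and 0.20, while Chek2, the kinase downstream of ATM, fell by 0.28 on the log2 scale. Hipk2, which phosphorylates p53 to favour cell death, fell most (-0.61 ± 0.18, adjusted p = 0.00602, edgeR), with WT DMSO libraries spread over 51.9, 30.7 and 67 CPM. Without WT DMSO replicate 3 its log2 fold change was -0.31.

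Of 18 tested modifiers and relatives of p53, 9 rose and 7 fell (median 0.07). Daxx, a histone chaperone that binds MDM2, rose 3.38-fold, from 71.7, 78.9 and 77.1 to 255, 259.7 and 254 CPM (1.76 ± 0.05, adjusted p = 2.64e-14, edgeR). Ppp1r13l, which encodes iASPP, an inhibitor of p53, fell 2.16-fold, from 19.1, 21.3 and 15.8 to 8.37, 8.55 and 8.98 CPM (-1.11 ± 0.10, adjusted p = 3.96e-08, edgeR). The methyltransferase Smyd2 and the deubiquitinase Usp10 also fell, with log2 values of -0.85 and -0.72. Trp63, a p53 relative, was not tested, with 0 reads in 3 of the 4 groups.

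Of 19 further targets tested, 10 rose and 6 fell (median 0.37), and Bcl6, a transcriptional repressor, was the only gene of the lists around p53 to rise in STINGgt/gt (0.34 ± 0.08, adjusted p = 0.0429, edgeR). Abcb1a, a drug efflux pump, rose from 1.24, 2.05 and 1.83 to 11.5, 10.2 and 11.7 CPM in WT (2.69 ± 0.13, adjusted p = 2.17e-11, edgeR), and Pml, the scaffold of nuclear bodies and also an interferon-induced gene, by 0.97 on the log2 scale. Prdm1, which encodes the repressor Blimp-1, fell from 10.1, 11.8 and 14.8 to 4.24, 5.55 and 6.56 CPM (-1.19 ± 0.16, adjusted p = 3.85e-06, edgeR). Among 12 proliferation genes 2 rose and 7 fell (median -0.30). Ccnb1, cyclin B1, fell most (-0.49 ± 0.04, adjusted p = 5.76e-08, edgeR), and the kinetochore protein Cenpf rose most (0.34 ± 0.09, adjusted p = 0.00282, edgeR; log2 0.22 without WT DMSO replicate 2).

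**Figure D5:**
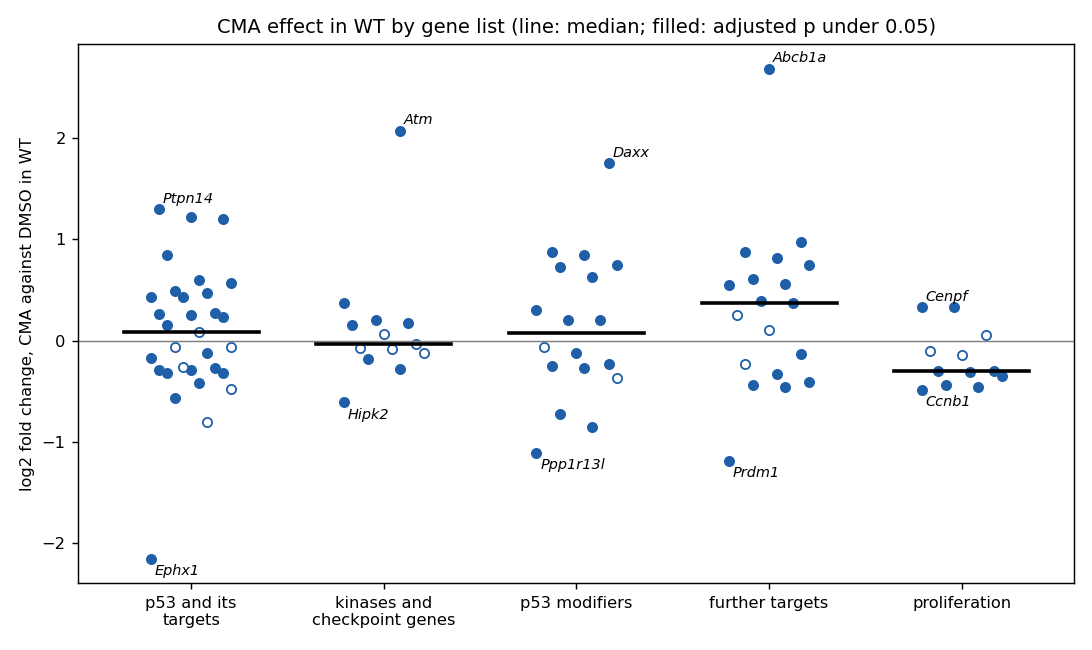
Log2 fold change with CMA against DMSO in WT (vertical axis) of every tested gene in 5 lists (columns), with a line at the median and filled points where the adjusted p is under 0.05. Each list holds genes that rose and genes that fell, and the medians run from -0.30 for proliferation genes to 0.37 for further targets.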

How the data were processed

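The authors deposited counts of reads per Ensembl gene for each library, without normalization, with HTSeq's tally lines. The submitters' processing notes name cutadapt 1.3, STAR 2.4.0f1, HTSeq 0.6.1, RSEM 1.2.16 and the build GRCm38. Libraries were made with a stranded mRNA kit, and cells received CMA at 0.125 mg/ml. The deposited log2 table of 11921 genes, 30 of the 32 among them, equalled log2 of the count plus 0.5, shifted by a constant per library, and was used as an alternative only. Alignments that were not unique (27.8% to 30.3% of tallied entries) and other entries naming no gene were left out.

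The counts were fitted with edgeR 4.0.16 (R 4.3.3; TMM, filterByExpr, glmQLFit and glmQLFTest) in 1 model of the 4 groups, adjusted over 13811 genes. Standard errors were derived from the F statistic. The 32 genes and the further lists were chosen with earlier results of these data known. Values per library were given for Trp53, Mdm2, Mdm4, Ppm1d, Cdkn1a, the 6 largest rises and the 6 largest falls past the threshold in WT (mean count of at least 50) and the 4 largest differences between genotypes with DMSO. From other lists the largest rise and fall were named, and a few more were chosen after their values were seen. Exon lengths and positions came from GENCODE M21 (GRCm38), promoters from RefSeq. Alternatives were library-size scaling, DESeq2 1.42.0, limma-voom (limma 3.58.1), limma on the log2 table, a minimum of 10 counts per library or none, a fit of only the groups compared, a replicate block, a 2-fold minimum and leaving out each library. Precision is limited by 3 libraries per group.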

Additional observations from a re-analysis of the deposited data

Results flagged for a closer look

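In edgeR's test of the difference between genotypes (WT effect of CMA minus STINGgt/gt effect, log2), 20 of the 31 genes tested passed the threshold. Over all genes tested 27.2% passed it upwards and 31.6% downwards. Among the regulators the differences were 0.43 for Trp53, 0.39 for Mdm2 and 0.42 for Mdm4. Among cell cycle genes they were 1.50 for Ptpn14, 0.53 for Gtse1, 0.23 for Btg2, -0.50 for Plk2 and -0.53 for Plk3. The repair genes were Ddb2 at 0.44 and Xpc at -0.22. Stress and metabolic targets were Trp53inp1 at 0.68, Sesn1 at -0.43 and Ephx1 at -2.13. The other targets were Phlda3 at 1.14, Perp at 1.20, Pidd1 at 0.54, Ei24 at 0.24, Zmat3 at -0.24, Cyfip2 at -0.26 and Aen at -0.42. In the further lists the differences were 1.95 for Atm, -0.64 for Hipk2, 1.74 for Daxx, -0.94 for Ppp1r13l, 2.28 for Abcb1a, -1.24 for Prdm1, -0.50 for Ccnb1 and 0.36 for Cenpf. The difference for Hipk2 lost the threshold in 15 of 19 alternative analyses, and was -0.34 without WT DMSO replicate 3. That for Zmat3 lost it in 10 of 19, with log2 values from -0.31 to -0.15, the latter without WT DMSO replicate 1, that for Xpc in 7 of 19 and that for Cenpf in 1 of 19, without WT CMA replicate 3.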

How the results depend on the processing

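No direction of a called gene reversed in any alternative. In WT with CMA, 22 of the 25 calls held in every alternative other than a 2-fold minimum, and those of Ppm1d, Ccng1 and Xpc did not. Of the 20 genes whose CMA effect differed between genotypes 18 held in all but that one, all but Xpc and Zmat3, and of the 19 that differed with DMSO 16 held likewise, all but Mdm2, Polk and Cyfip2. With a 2-fold minimum, the counts of genes higher and lower fell to 3 and 1 in WT, 3 and 1 for the effects' difference, and 2 and 1 for WT against STINGgt/gt with DMSO. Fitted on only the 2 groups compared, 5 genes were higher in WT with DMSO in place of 8, and in STINGgt/gt 1 was higher with CMA (Fbxw7) and 2 were lower (Cdkn1a and Ddb2). In STINGgt/gt 1 gene, Cdkn1a, was lower with DESeq2, 1 without a filter and 1 with a replicate block. Leaving out each library in turn gave 14 to 15 higher and 9 to 12 lower in WT, and 0 higher and 0 to 2 lower in STINGgt/gt, where Cdkn1a was called without WT DMSO replicate 2, WT DMSO replicate 3 or STINGgt/gt CMA replicate 1, and Ddb2 without WT DMSO replicate 2. For the difference it gave 12 to 15 higher and 6 to 9 lower, and for WT against STINGgt/gt with DMSO 6 to 8 higher and 11 to 12 lower. The cause of these shifts was not tested.

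Equal replicate numbers were not read as pairs, since the labels tie them to no shared animal or day. The mean of its group was taken from the log2 CPM of each library, and the remaining deviations were correlated. These are not correlations of whole libraries. Same-numbered libraries gave 0.00 to 0.13 in WT and 0.06 in STINGgt/gt, with 2 of 6 pairs over 0.1. Differently numbered libraries of a genotype gave -0.15 to 0.06. As a hint from the data, the deviations of 10 of 12 libraries correlated best with those of their own number. In 5 of 6 pairs the sample names share a first digit. A replicate block gave 15 higher and 10 lower genes in WT, and 13 and 8 for the difference. With it Cdkn1a passed the threshold in STINGgt/gt (adjusted p = 0.00197, edgeR) and for the difference (adjusted p = 0.00407). Counts of 2 to 15 reads limit what can be said of Gdf15 and Eda2r.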
